A study of Saccharomyces cerevisiae with 2 samples.

Results

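Nucleosomes with long protected footprints were the 461 positions on budding yeast chromosome III whose forward and reverse read peaks lay farthest apart. They were chosen by the deposited peak distance, here called delta, as the highest 10% of each paired-end list. The H2A.Z list gave 226 of 2264 positions and the total list gave 235 of 2353, out of 4617 paired-end positions in all. A place long in both lists is counted once in each, which holds for 83 pairs of mutually nearest centres within 20 bp. They are set against the middle 80% of each list by delta, which held 1812 H2A.Z and 1883 total positions.

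The study sequenced DNA protected from micrococcal nuclease (MNase) in 2 libraries, 1 of mononucleosomes precipitated for H2A.Z with an anti-Myc antibody and 1 of total mononucleosomes. Both came from strain yFR212 of the W303 background, a MATa strain in which the HTZ1 gene, coding for H2A.Z, ends in 3 Myc epitopes, so the total library holds tagged H2A.Z as well. The strain also carries ade2-1, trp1-1, can1-100, ura3-1 and mutant alleles of leu2 and his3, and it is GAL+ and psi+. Cells grew in YPD to an optical density of 0.8, were fixed with 1% formaldehyde, and were digested for 20 minutes at 37 °C in 5 aliquots with different amounts of MNase. Which aliquots entered each library is not given in the sources used here. Each library also has a list made from single-end data. With 1 library per group no difference has a replicate error, no p-value is given, and intervals cover counting error over positions only. Depth is unknown, as no read numbers come with these files.

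A nucleosome wraps DNA around a histone octamer and shields it from MNase. The enzyme first cuts the linker between nucleosomes and then trims inwards, so the shielded length depends on how far digestion went. H2A.Z replaces histone H2A in some nucleosomes and in yeast is best known from those that flank the nucleosome-depleted stretch of promoters. In these lists delta stands in for the length of the shielded piece, since forward reads mark one end of it and reverse reads the other.

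Most long footprints were only about 10 bp longer than usual. Their median delta was 135 bp in the H2A.Z list (quartiles 133.9 and 137.8 bp), against 125 bp in the middle 80%. In the total list it was 139 bp (136.6 and 141.6 bp), against 126 bp. The highest values were 180 bp for H2A.Z and 189 bp for total chromatin. The length of DNA wrapped in a full core particle, a textbook value just under 150 bp, was reached by 9 H2A.Z members (4.0%) and 34 total members (14.5%), which were 0.398% and 1.44% of all positions of their lists. "Long" is therefore relative to these lists, as 217 of 226 H2A.Z and 201 of 235 total members lay below the core length. These values chose the members and are a description only.

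The threshold cut through a continuous distribution. The 3 H2A.Z members just inside it, at 139522, 145312 and 60582, had deltas of 133.14, 133.13 and 133.11 bp. The 3 positions just outside, at 15930, 267846 and 123084, had 133.10, 133.085 and 133.085 bp. In the total list the members at 34872, 314102 and 179602 had 135.57, 135.57 and 135.56 bp, and the positions at 138101, 59535 and 247781 had 135.50, 135.49 and 135.47 bp. Coordinates are centres on chromosome III in sacCer2, as the lists give them.

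**Figure D1:**
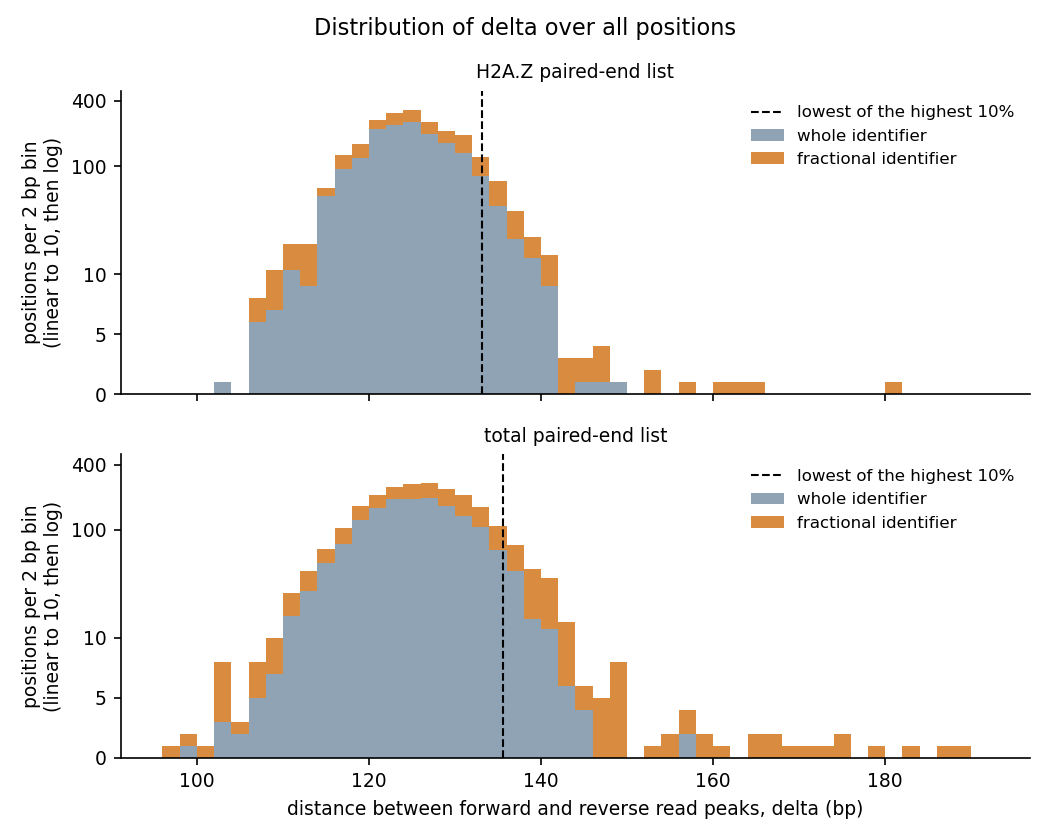
Number of positions per 2 bp of delta (bp) in the H2A.Z list (top) and the total list (bottom), in bars stacked by whole and fractional identifier, on an axis that is linear to 10 and logarithmic above. The dashed line marks the lowest member, at 133.11 bp for H2A.Z and 135.56 bp for total chromatin, and most of the sparse tail beyond the core length has fractional identifiers.

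The longest footprints of all were mostly not seen in the other lists. The 5 highest H2A.Z deltas were 180 bp at 118242, 165 bp at 128108, 163 bp at 117005, 162 bp at 116936 and 158 bp at 288297. Each of the 5 had its nearer H2A.Z neighbour 37.8 to 50.4 bp away. Only the last had a total position within 20 bp, at 288298, with a delta of 142 bp that was also among the highest 10%. None of the 5 had a centre of the H2A.Z single-end list within 20 bp. The position at 128108 ranked 2264 of 2264 by score. The SD of its reverse read positions was 23321 bp, so its delta cannot be read as a footprint length.

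The 5 highest total deltas were 189 bp at 240919, 186 bp at 173809, 183 bp at 17403, 178 bp at 261322 and 176 bp at 261223. Their nearer neighbours lay 25.2 to 73.2 bp away. The position at 261322 had an H2A.Z centre 10.3 bp away with a delta of 129 bp, and a total single-end centre 18.1 bp away with 141 bp. The other 4 had neither within 20 bp. Among them, 17403 ranked 2303 of 2353 by score. The SD of its reverse read positions was 10041 bp, so its delta cannot be read as a footprint length either. Some of these centres share an identifier. Those at 261322 and 261223 have 1 identifier and mixing weights of 0.40 and 0.60, and the H2A.Z centres at 116936 and 117005 share another, with weights of 0.42 and 0.58. The mixing weight is the part of a fitted stretch's reads that the model gives to a centre.

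All 10 have identifiers that are fractional numbers, whose meaning the files do not give. Fractional identifiers were carried by 95 of the 226 H2A.Z members, or 42.0% (95% Wilson interval 35.8 to 48.6%), against 23.5% (21.6 to 25.5%) of the middle 80% and 25.8% of the whole list. In total chromatin the count was 143 of 235, or 60.9% (54.5 to 66.9%), against 28.5% (26.5 to 30.5%) of the middle 80% and 32.2% of the list. Among members of at least the core length, 8 of 9 H2A.Z and 32 of 34 total rows had one. The part that the fitting step plays in these long values was not tested. A reverse-strand variance above 10000 squared bp, far wider than a nucleosome, was found in 14 H2A.Z members, or 6.2%. The middle 80% had 7, or 0.39%, and the share of the whole list was 1.02%. Such a variance was found in 23 total members, or 9.8%, against 37, or 1.96%, of the middle 80% and 2.59% of the list. All of these members, those at 128108 and 17403 included, had fractional identifiers. The identifiers of the other rows with such a variance were not counted.

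Most long footprints had a centre of the other library at the same place, but fewer of the longest ones of total chromatin did. A total centre lay within 20 bp of 160 of the 226 H2A.Z members, or 70.8% (64.6 to 76.3%), against 69.3% (67.1 to 71.3%) of the middle 80% and 69.4% of the list. The difference was 1.5 percentage points, with an interval of -5.0 to 7.5. An H2A.Z centre lay within 20 bp of 155 of the 235 total members, or 66.0% (59.7 to 71.7%), against 68.2% (66.1 to 70.3%) of the middle 80% and 67.9% of the list. That difference was -2.2 points (-8.8 to 3.9). Of the total members in the upper quartile of the members' delta, 24 of 59 were matched, or 40.7% (29.1 to 53.4%), against 74.4% (67.5 to 80.3%) of the other members, and with the highest 5% as members the difference was -15.7 points (-24.9 to -6.7). Of that total quartile, 79.7% had fractional identifiers and 76.3% a neighbour under 100 bp, against 54.5% and 48.3% of the other total members. The part of these traits in the matching was not tested. For H2A.Z the upper quartile was matched at 63.2% (50.2 to 74.5%), against 73.4% of the other members. In both single-end lists the highest 10% by delta were matched less often than the middle 80%, with 58.4% of the 185 longest H2A.Z positions matched, against 85.7%, and 66.5% of the 188 longest total positions, against 84.5%. The longest single-end positions were also more crowded. A neighbour under 100 bp was found for 48.1% of them in H2A.Z, against 13.5%, and 35.1% in total chromatin, against 12.6%. Its part in the matching was not tested.

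Where the libraries shared a position, the length was often long in both. Of the 156 H2A.Z members with a mutually nearest total position within 20 bp, 83 were matched to a long footprint of the total list, or 53.2% (45.4 to 60.9%). The share was 60 of 1242, or 4.8% (3.8 to 6.2%), in the middle 80%, and 9.26% of all matched H2A.Z positions. Of the 144 total members with such a partner, the same 83 pairs made up 57.6% (49.5 to 65.4%), against 72 of 1254, or 5.7% (4.6 to 7.2%), in the middle 80% and 10.0% of all matched total positions. Each set was chosen by delta in 1 library, and the partner's delta comes from the other.

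The partners of members that were no members themselves lay mostly in the middle 80% by delta. Of the 226 H2A.Z members, 72 had a partner in the middle 80% and 1 in the lowest 10% of the total list. Another 4 had a centre within 20 bp that lay nearer to another position, and 66 had none. Of the 235 total members, 60 had a partner in the middle 80%, 1 had one in the lowest 10%, 11 had a nearby centre that was not mutually nearest, and 80 had none. The shares with any centre within 20 bp, 70.8% and 66.0%, stood near the 69.4% and 67.9% of all positions.

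Partner length followed delta over the whole range. In deciles of the H2A.Z list by delta, the median delta of the total partner was 117 bp in decile 1, 125 bp in decile 5, 132 bp in decile 9 and 136 bp in decile 10, which holds the members. The total partners of H2A.Z members had a median delta of 136 bp (134.7 to 136.6 bp), against 126 bp (125.7 to 126.6 bp) for the middle 80%, a difference of 9.8 bp (8.5 to 10.6 bp). The H2A.Z partners of total members had a median of 134 bp (133.1 to 134.2 bp), against 125 bp (124.6 to 125.3 bp), a difference of 8.8 bp (8.0 to 9.4 bp). Spearman's rho between the 2 deltas was 0.73 over all 1555 mutually nearest pairs, and 0.63 over the 1242 H2A.Z rows of the middle 80%. Among the 156 H2A.Z members alone it was 0.23, and among the 144 total members 0.37. Cutting a list by delta narrows its range, which by itself lowers rho. The values within classes therefore cannot be read as weaker agreement than over all pairs. These are descriptions, since neighbouring positions are not independent and each library gives all its points.

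**Figure D2:**
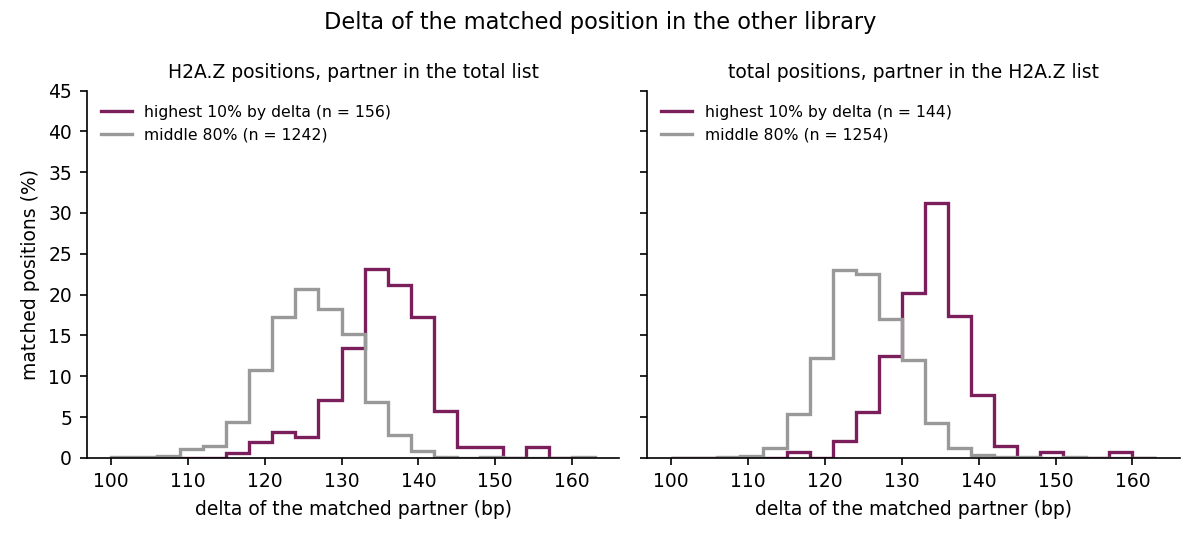
Delta (bp) of the matched position in the other library, as the percentage of matched positions per 3 bp (end bins hold any value beyond them), for members (purple) and the middle 80% (grey), with H2A.Z positions on the left and total positions on the right. The curves of the members are shifted to longer partners, with medians of 136 and 134 bp against 126 and 125 bp.

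Single-end data of the same library, which share its DNA but were modelled separately, gave the same order. The single-end delta had a median of 139 bp at 139 matched H2A.Z members, against 128 bp for the middle 80%, and of 140 bp at 130 matched total members, against 128 bp. The single-end row was itself in the highest 10% of its list for 49 of 139 H2A.Z members, or 35.3% (27.8 to 43.5%), against 6.0% (4.8 to 7.5%) of the middle 80% and 8.17% of all matched rows. For total members it was 67 of 130, or 51.5% (43.0 to 60.0%), against 5.6% (4.4 to 7.0%) and 8.90%. A single-end centre lay within 20 bp of 62.4% of H2A.Z members (55.9 to 68.4%), against 67.4% of the middle 80% (67.0% of the list), and of 58.7% of total members (52.3 to 64.8%), against 68.1% (66.7%). Among rows with whole identifiers the direction was opposite in both libraries, at 78.6% of 131 H2A.Z members against 72.8%, and 88.0% of 92 total members against 71.9%.

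Members with whole identifiers and members without close neighbours were matched more often than the others. Of the 131 H2A.Z members with whole identifiers 78.6% (70.8 to 84.8%) had a total centre within 20 bp, and of the 95 with fractional ones 60.0% (49.9 to 69.3%). In total chromatin these shares were 87.0% (78.6 to 92.4%) of 92 and 52.4% (44.3 to 60.5%) of 143. The same split was smaller in the middle 80%, with 72.5% and 58.7% for H2A.Z and 70.4% and 62.7% for total positions. Among positions with no neighbour under 100 bp, long footprints were the better matched. The shares were 88.4% of 129 H2A.Z members (81.7 to 92.8%), against 80.6% of 1033 in the middle 80% (78.1 to 82.9%). They were 91.4% of 105 total members (84.5 to 95.4%), against 80.2% of 1002 (77.7 to 82.6%). With a neighbour under 100 bp they were the less well matched, at 47.4% of 97 H2A.Z members (37.8 to 57.3%), against 54.2% of 779, and 45.4% of 130 total members (37.1 to 54.0%), against 54.5% of 881. The split by neighbours was chosen after its values were seen.

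The 83 pairs found long in both libraries are 36.7% of the H2A.Z members and 35.3% of the total members. Their centres lay a median of 4.13 bp apart (0.03 to 18.3 bp). Their deltas had medians of 136 bp in H2A.Z (133 to 158 bp) and 139 bp in total chromatin (136 to 156 bp). The pairs ranked above the middle of both lists by score, with a median percentile of 66.8 among H2A.Z and 71.8 among total positions. Both rows had whole identifiers in 51 of the 83 pairs, and 21 H2A.Z rows and 27 total rows had fractional ones. Over all 1555 mutually nearest pairs, 1229 H2A.Z rows and 1135 total rows had whole identifiers. The share whole in both and the median percentile over all such pairs are not given here, so neither value sets the 83 apart. Matching and membership chose these pairs, so the values describe them.

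The 5 shared pairs with the best summed score ranks are given here, though most were not long in the single-end lists. The first has its H2A.Z centre at 61666 with a delta of 133.6 bp and its total centre at 61659 with 137.6 bp, ranked 15 and 6 in their lists. The second lies at 240532 in H2A.Z, with 135.8 bp and rank 11, and at 240534 in total chromatin, with 135.8 bp and rank 56. The third lies at 211895 in H2A.Z, with 137.0 bp and rank 27, and at 211893 in total chromatin, with 139.5 bp and rank 54. All 3 flanked a distance of at least 220 bp in the total single-end list. This marks a wide linker or a stretch with no nucleosome called in that list. At the second, both paired-end lists had nearer centres on each side, 165.5 and 114.3 bp away in H2A.Z and 171.3 and 145.5 bp in total chromatin. The fourth lies at 47187 in H2A.Z (135.0 bp, rank 115) and at 47183 in total chromatin (135.9 bp, rank 12). It was not beside a wide distance in the total single-end list, but its left neighbour in the total paired-end list was 284.8 bp away. The fifth lies at 252602 (135.2 bp, rank 31) and at 252606 (136.55 bp, rank 105), again beside a wide distance.

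A smaller set was long in all 4 lists. Of the 64 shared pairs found in both single-end lists, 21 were in the highest 10% of each, or 32.8% (22.6 to 45.001%). The share was 6 of 792, or 0.758% (0.348 to 1.64%), for pairs in the middle 80% of both lists, and 3.00% of all 1101 such pairs. Both single-end lists share DNA with the paired-end lists that chose the members. The longest of the 21 in every one of the 4 lists was at 264260 in H2A.Z and 264257 in total chromatin. There delta was 149 bp in the H2A.Z paired-end and 159 bp in the H2A.Z single-end list, and 156 and 158 bp in the total lists. Its nearer neighbour was 150.6 bp away in H2A.Z and 162.7 bp away in total chromatin. It was the only H2A.Z member of at least the core length with a whole identifier, and it was named after its values were seen.

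Long footprints had no clear standing by score in H2A.Z, and in total chromatin those with whole identifiers were more often among the strongest positions. The score is the authors' measure of enrichment and is compared here only by rank within a list. The median percentile was 49.4 for H2A.Z members (38.8 to 55.9), against 50.9 in the middle 80% (48.5 to 53.3). In total chromatin it was 53.3 (48.1 to 62.6), against 50.9 (48.6 to 53.3). The highest 10% by score held 21 H2A.Z members, or 9.3% (6.2 to 13.8%), against 10.2% (8.8 to 11.6%) of the middle 80% and 9.98% of the list. It held 35 total members, or 14.9% (10.9 to 20.0%), against 9.7% (8.5 to 11.1%) and 9.99%. The difference for total members was 5.2 percentage points, with an interval of 0.9 to 10.4. By identifier it was 20.7% of whole-identifier total members (13.6 to 30.02%), against 8.5% of the middle 80%, and 11.2% of fractional ones (7.0 to 17.4%), against 12.9%. Of the total members in the upper quartile of delta, 2 of 59 were that strong, or 3.4% (0.9 to 11.5%), against 18.75% of the other members. For members with no neighbour under 100 bp the median total percentile was 76.2, against 64.2 in the middle 80%. In the single-end lists the highest 10% by delta stood lower by score. Their median percentile was 24.4 in H2A.Z, against 52.6 in the middle 80%, and 35.5 in total chromatin, against 54.4.

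The highest 10% by score held 56 members, called strong here, with a place strong in both lists counted once in each. All had a partner in the other library within 20 bp, 21 of 21 in H2A.Z (84.5 to 100%) and 35 of 35 in total chromatin (90.1 to 100%). Of strong positions in the middle 80% it was 94.6% and 97.3%. The partner was also long for 15 of the 21 H2A.Z members, or 71.4% (50.0 to 86.2%), against 3.5% of strong middle positions. It was long for 21 of the 34 total members with a mutual partner, or 61.8% (45.04 to 76.1%), against 5.2%.

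The 5 highest-scoring H2A.Z members were at 240532, 286743, 61666, 211895 and 252602, with deltas of 135.8, 133.9, 133.6, 137.0 and 135.2 bp. They ranked 11, 12, 15, 27 and 31 of the list. The position at 286743 was the exception among them, as its total partner at 286748, with 131.2 bp, was not long. The 5 highest-scoring total members were at 106635, 61659, 34872, 47183 and 17477, with deltas of 138.6, 137.6, 135.6, 135.9 and 136.0 bp and ranks of 3, 6, 7, 12 and 36. Their H2A.Z partners had deltas of 134.6, 133.6, 125.3, 135.0 and 130.9 bp, so the partners at 34864 and 17483 were not among the longest. The strongest total member, at 106635, was long in the total single-end list as well, with 140.1 bp.

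Forward reads at long footprints were somewhat more tightly placed than elsewhere, while reverse reads and the longest members did not all follow. The SD of forward read positions, a measure of how fuzzy a nucleosome is, had a median of 25.8 bp at H2A.Z members (25.1 to 26.8 bp), against 27.0 bp in the middle 80% (26.8 to 27.3 bp). It was 23.0 bp at total members (22.4 to 24.0 bp), against 25.6 bp (25.4 to 25.9 bp). The differences were -1.3 bp (-2.0 to -0.2 bp) and -2.6 bp (-3.3 to -1.6 bp). On the reverse strand the medians were 27.0 bp for H2A.Z members, against 27.3 bp, and 24.5 bp for total members, against 25.8 bp. The standard error of the centre was about the same, with medians of 2.46 bp in H2A.Z, against 2.41 bp, and 1.78 bp in total chromatin, against 1.73 bp.

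On the forward strand, rows with fractional identifiers were less fuzzy. Within H2A.Z members the median forward SD was 26.6 bp for whole and 25.01 bp for fractional identifiers, and in the middle 80% it was 27.5 and 25.6 bp. Within total members it was 24.9 and 22.2 bp, against 26.7 and 22.8 bp in the middle 80%. Members were thus below the middle 80% within each kind of identifier on this strand. On the reverse strand H2A.Z members had 26.4 bp for whole and 28.8 bp for fractional identifiers, against 27.5 and 26.7 bp. Total members had 24.9 and 24.0 bp, against 26.6 and 23.7 bp. The upper quartile of H2A.Z members by delta was fuzzier than the whole middle 80%, with 28.1 bp on the forward and 30.7 bp on the reverse strand, against 27.0 and 27.3 bp. That quartile of total members had 24.8 and 25.9 bp, against 25.6 and 25.8 bp. The mixing weight had a median of 0.32 at H2A.Z members, against 0.22, and of 0.49 at total members, against 0.23. Among whole identifiers the H2A.Z difference in mixing weight was -0.0189, the opposite direction.

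Crowding of long footprints depended on the identifier. A neighbouring centre less than 100 bp away, too near for a pair of full core particles on 1 DNA molecule, was found for 97 of the 226 H2A.Z members. That is 42.9% (36.6 to 49.4%), against 43.0% (40.7 to 45.3%) of the middle 80% and 42.7% of the list. It was found for 130 of the 235 total members, or 55.3% (48.9 to 61.5%), against 46.8% (44.5 to 49.0%) and 47.0% of the list. Among rows with whole identifiers the share was 26.7% of H2A.Z members (19.9 to 34.9%), against 35.0% of the middle 80% (32.5 to 37.5%). In total chromatin it was 14.1% (8.4 to 22.7%), against 36.9% (34.4 to 39.5%), so the direction was opposite to that over all total members. Among fractional rows it was 65.3% of H2A.Z members, against 69.0%, and 81.8% of total members (74.7 to 87.3%), against 71.6% (67.7 to 75.3%).

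Whole-identifier members lay farther from their neighbours than the middle 80%. Their nearer neighbour lay a median of 151 bp away in H2A.Z, against 120 bp in the middle 80%, and 160 bp away in total chromatin, against 119 bp. A nearer neighbour 160 to 180 bp away was found for 31.3% of these H2A.Z members, against 15.0%, and for 43.5% of these total members, against 17.3%. Fractional members had medians of 66.0 bp in H2A.Z, against 63.9 bp, and of 37.9 bp in total chromatin, against 56.6 bp. Over all members the medians were 113 bp in H2A.Z, against 112 bp, and 71.6 bp in total chromatin (59.2 to 106.3 bp), against 105 bp (102.4 to 109.9 bp). The farther neighbour lay 162 bp away in H2A.Z, against 156 bp, and 160 bp away in total chromatin, against 155 bp.

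**Figure D3:**
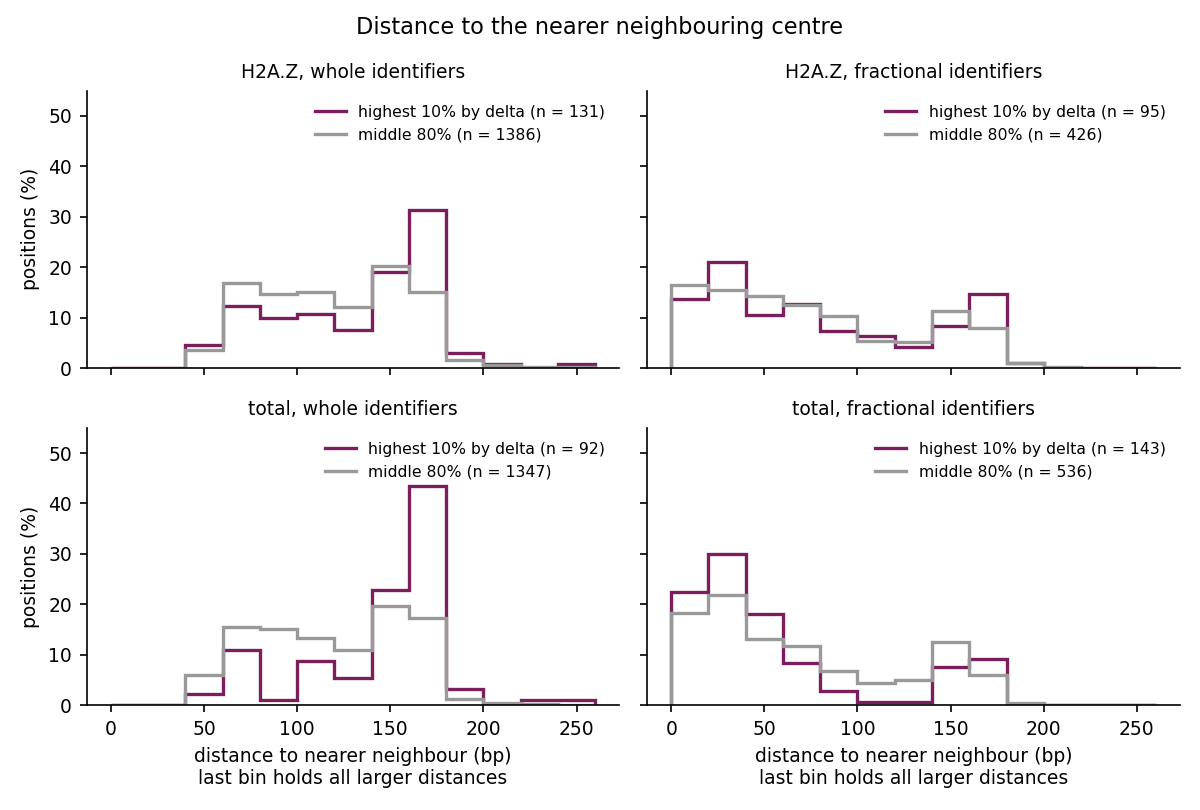
Distance (bp) to the nearer neighbouring centre, as a percentage of positions per 20 bp (the last bin holds all longer distances), for members (purple) and the middle 80% (grey), in H2A.Z (top) and total chromatin (bottom), with whole identifiers on the left and fractional ones on the right. Whole-identifier members peak between 160 and 180 bp, with 31.3% of H2A.Z and 43.5% of total members, while fractional members lie mostly below 100 bp.

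Long footprints were found beside wide distances about as often as other positions. A total single-end centre that flanks a distance of 220 bp or more lay within 20 bp of 29 H2A.Z members, or 12.8% (9.1 to 17.8%), against 11.2% (9.8 to 12.7%) of the middle 80% and 11.6% of the list. It lay within 20 bp of 30 total members, or 12.8% (9.1 to 17.6%), against 10.7% (9.4 to 12.2%) and 11.7%. Positions well inside such a distance, more than 20 bp from both flanks, numbered 7 among H2A.Z members, or 3.1%, against 3.7% (4.15% of the list). They numbered 3 among total members, or 1.3% (0.4 to 3.7%), against 3.4% (3.48% of the list).

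Among rows with whole identifiers, total members flanked wide distances more often. There the share was 24 of 92, or 26.1% (18.2 to 35.9%), against 12.5% (10.9 to 14.4%) of whole-identifier positions in the middle 80%. For H2A.Z it was 23 of 131, or 17.6% (12.0 to 24.97%), against 13.4% (11.7 to 15.3%). When positions with a neighbour under 100 bp were also left out, it was 29.1% of 79 total members (20.3 to 39.9%), against 17.4% (15.0 to 20.1%). For H2A.Z it was 22.9% of 96 members (15.6 to 32.3%), against 19.0% (16.6 to 21.7%). Of the strong H2A.Z members, 14 of 21, or 66.7% (45.4 to 82.8%), lay beside a wide distance, against 59.2% (52.0 to 66.1%) of strong positions in the middle 80%. Of the strong total members it was 8 of 35, or 22.9% (12.1 to 39.0%), against 35.5% (28.9 to 42.7%).

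**Figure D4:**
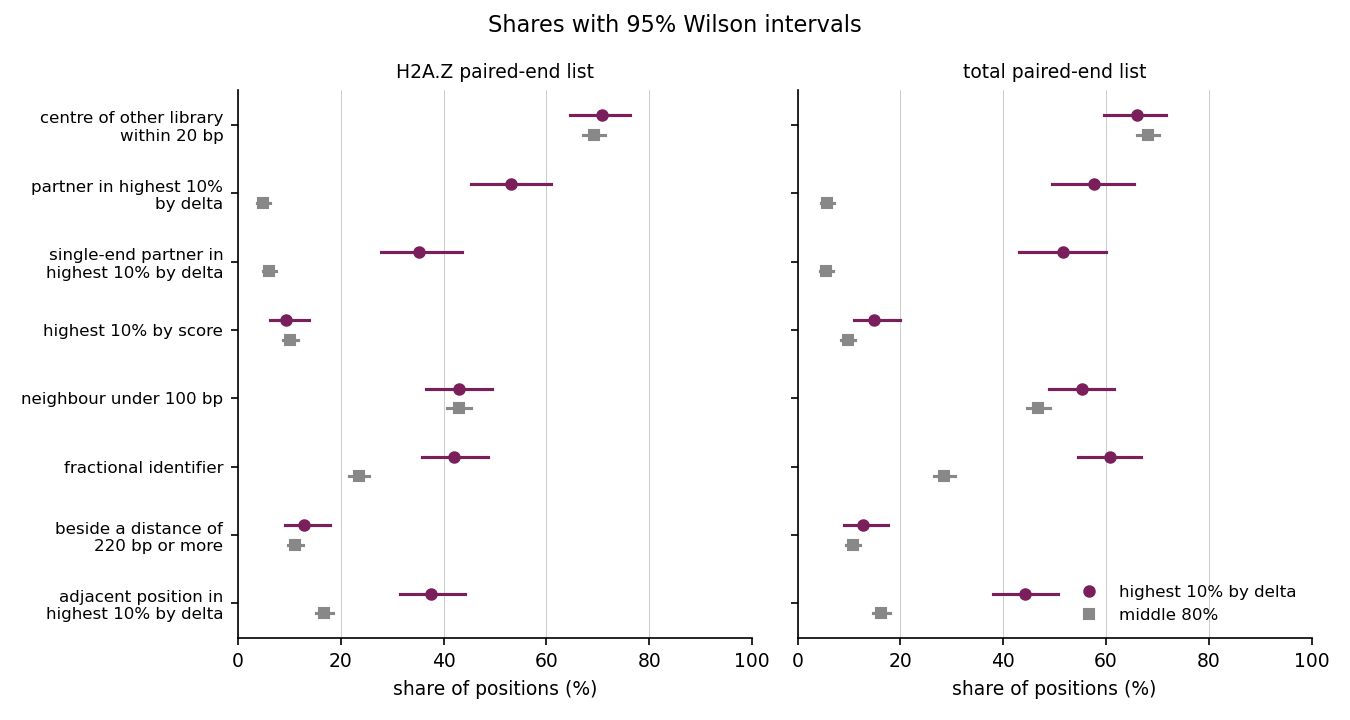
Share of positions (%) with each property, as points with 95% Wilson intervals, for members (purple circles) and the middle 80% (grey squares) in the H2A.Z list (left) and the total list (right). The partner being long and the fractional identifier stand apart, at 53.2% against 4.8% and 42.0% against 23.5% in H2A.Z, while matching within 20 bp does not, at 70.8% against 69.3%.

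Long footprints were unevenly spread along the chromosome, and 1 stretch of 10 kb was the richest in both libraries. From 210 to 220 kb, 20 of 67 H2A.Z positions were members, or 29.9% (exact interval 19.3 to 42.3%), as were 23 of 78 total positions, or 29.5% (19.7 to 40.9%). Whole identifiers made up 16 of the members in each library. Windows held 1 to 20 H2A.Z and 1 to 23 total members, with a median of 6 in both. The exact interval lay above the list's 10% in 2 of 32 windows for H2A.Z, the other being 220 to 230 kb with 14 of 75, or 18.7% (10.6 to 29.3%). It lay above in 3 windows for total chromatin, the others being 240 to 250 kb with 18 of 76, or 23.7% (14.7 to 34.8%), and 260 to 270 kb with 14 of 74, or 18.9% (10.7 to 29.7%). H2A.Z had 5 of 68 and 10 of 78 members there. The interval lay below the list's share in 1 H2A.Z window, from 190 to 200 kb with 1 of 66 (upper bound 8.2%), and in 4 total windows. These were the 3 from 120 to 150 kb, with 2 of 77, 1 of 75 and 2 of 74, and 290 to 300 kb with 2 of 76, with upper bounds of 7.2 to 9.4%. Spearman's rho between the window counts of the libraries was 0.49 over the 32 windows, as a description.

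The chromosome ends gave no clear departure. The first 20 kb held 20 H2A.Z members, or 8.8% (5.5 to 13.3%), against 6.6% of the middle 80% (6.71% of the list), and 13 total members, or 5.5% (3.0 to 9.3%), against 5.9% (5.91%). The last 20 kb held 20 H2A.Z members, or 8.8%, against 6.3% (6.54%), and 11 total members, or 4.7% (2.4 to 8.2%), against 7.6% (7.05%).

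Members were often next to one another. An adjacent position was also a member for 85 H2A.Z members, or 37.6% (31.6 to 44.1%), against 16.8% (15.1 to 18.6%) of the middle 80% and 18.3% of the list. It was for 104 total members, or 44.3% (38.0 to 50.6%), against 16.3% (14.7 to 18.0%) and 18.2%. A single identifier was shared by 21 of the 37 H2A.Z runs of at least 2 members and 25 of the 44 total runs. The share of all adjacent positions with 1 identifier was not computed. Sharing is common in these lists, with 1681 whole-identifier H2A.Z rows over 501 identifiers and 1596 total ones over 490.

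The longest run in both lists lay in the richest window and began at matching positions. In H2A.Z it had 5 members, with centres at 211895, 212072, 212252, 212430 and 212559 and deltas of 137.0, 137.5, 137.5, 133.8 and 133.7 bp. In total chromatin it had 6, at 211893, 212071, 212239, 212406, 212586 and 212743, with 139.5, 144.3, 140.1, 138.0, 139.4 and 140.7 bp. The total centres were 158 to 180 bp apart. On its left side the first nucleosome faced a distance of 320 bp in H2A.Z and 325 bp in total chromatin. The first had the highest score of the run, with rank 27 in H2A.Z and 54 in total chromatin, and the others ranked 468 to 1488 and 319 to 910. In the total single-end list all 6 were also in the highest 10%, with 140.6 to 149.0 bp. In the H2A.Z single-end list 3 of the 6 centres over the same span were, with deltas from 134.6 to 146.3 bp over all 6. The nucleosome across the wide distance was not long, with 128.9 bp at 211575 in H2A.Z and 133.3 bp at 211568 in total chromatin. The run was singled out after its values were seen, and genes are not assigned here, as the gene table at hand belongs to another genome build.

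**Figure D5:**
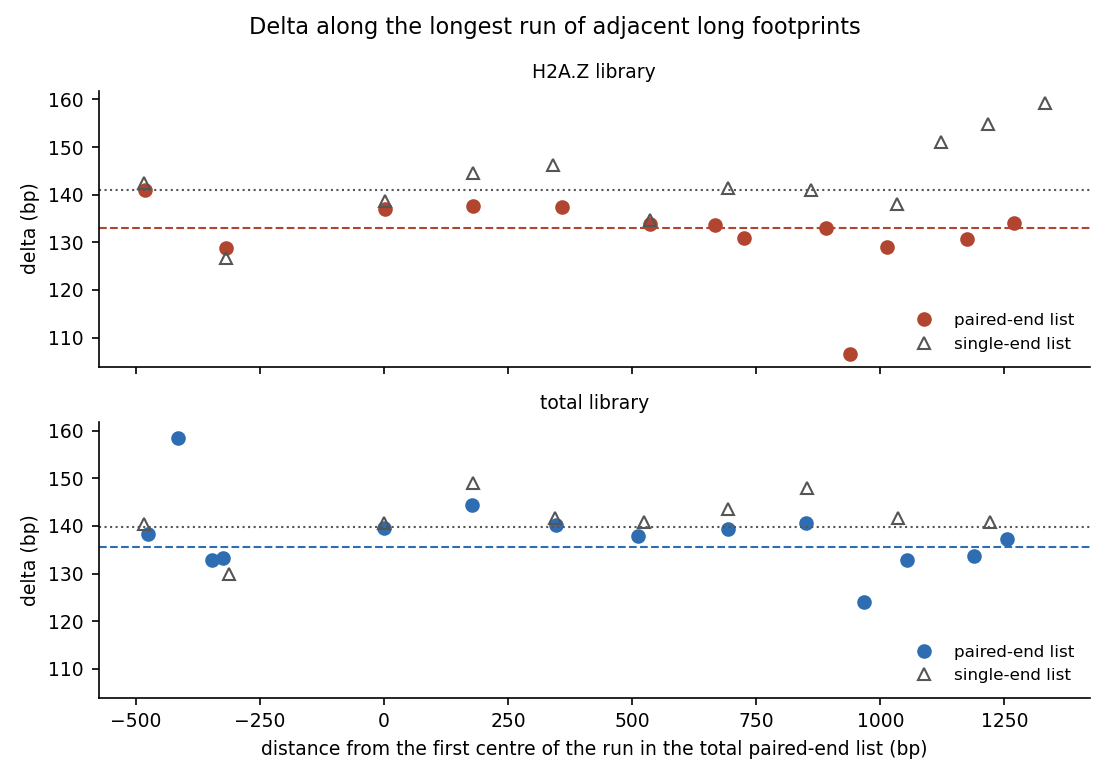
Delta (bp) of each centre against its distance (bp) from the first centre of the total run, in the H2A.Z library (top) and the total library (bottom), with filled circles for paired-end and open triangles for single-end lists. Dashed and dotted lines mark the lowest of the highest 10% in each list, and the 6 total paired-end centres of the run lie between 138.0 and 144.3 bp, all above their line.

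The outer edges of members were set against those of the other library. Edges were taken as the centre minus or plus 0.5 times delta and compared with those of the matched position in the other library, a positive value meaning that the position's own edge reached farther out. On the side of the farther neighbour the median was -2.5 bp at H2A.Z members (-3.7 to -0.5 bp), against -1.8 bp in the middle 80%. On the side of the nearer neighbour it was 2.3 bp (0.4 to 3.6 bp), against 0.5 bp. At total members it was 1.9 bp on the farther side (0.3 to 3.6 bp), against 0.5 bp, and 3.2 bp on the nearer side (1.9 to 5.6 bp), against 0.8 bp. The difference from the middle 80% was -0.7 bp on the farther side (-2.1 to 1.4 bp) and 1.8 bp on the nearer side (-0.1 to 3.3 bp) in H2A.Z. It was 1.4 bp (-0.3 to 3.2 bp) and 2.4 bp (1.0 to 4.9 bp) in total chromatin. The partners of members had a higher median delta than those of the middle 80%. Long partners were 53.2% for H2A.Z members and 57.6% for total members. These values thus compare the libraries and do not place the extra length over the middle 80%. They contain the delta that chose the members and are a description.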

How the data were processed

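Each library has a paired-end and a single-end list of nucleosome positions on chromosome III. The series title names PING, which fits a mixture to forward and reverse reads. BWA, SAMtools and the build sacCer2 come from the submitters' processing notes, and neither versions nor settings were at hand. Per the file headers, the deposited centres and delta are positions and lengths in bp, and spreads are variances. The mixing weight is deposited as a fraction. The score is the authors' own, on no stated scale, and was used only to rank within a list. Samples were grouped by their titles.

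The members, lists and comparisons were chosen with earlier results of these data known. Members were the highest 10% of each paired-end list by delta, the comparison the middle 80%. Centres matched within 20 bp. A position beside a wide distance lay within 20 bp of a total single-end centre flanking 220 bp or more. Percentiles count from the lowest score. Shares carry 95% Wilson or exact Clopper-Pearson intervals, medians order-statistic intervals, and differences intervals built from both. Positions are not independent, and the intervals cover counting error only. Positions named are the 5 highest deltas, the 5 best-scored members, the 3 on each side of the threshold and the 5 best shared pairs, and others are named as chosen after seeing values. Computations used Python 3.11.15, numpy 2.4.6, pandas 2.3.3, scipy 1.17.1 and matplotlib 3.10.9, and the matching was tested on simulated data. No genome of the files' build was used here, so neither genes nor sequences are given.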

Additional observations from a re-analysis of the deposited data

Results flagged for a closer look

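Several comparisons of long footprints with the middle 80% had opposite signs in the H2A.Z and total libraries. In each case the difference between the libraries was not tested, as each has 1 library. The share matched within 20 bp was 1.54 percentage points higher in H2A.Z and differed by -2.23 points in total chromatin, and both intervals held 0. The median score percentile differed by -1.44 in H2A.Z and 2.34 in total chromatin, also with both intervals holding 0. The share among the highest 10% by score differed by -0.862 points in H2A.Z (-4.3 to 3.8) and 5.18 points in total chromatin (0.9 to 10.4). The nearer neighbour differed by 1.74 bp in H2A.Z (-12.0 to 22.4 bp) and -33.6 bp in total chromatin (-46.8 to 1.3 bp). The share with a neighbour under 100 bp differed by -0.0708 points in H2A.Z (-6.8 to 6.8) and 8.53 points in total chromatin (1.8 to 15.1).

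Against the matched position of the other library, the edge on the farther neighbour's side differed from the middle 80% by -0.669 bp in H2A.Z and 1.43 bp in total chromatin. The left edge, towards lower coordinates, differed by -1.15 bp in H2A.Z (-3.2 to 0.4 bp) and 2.87 bp in total chromatin (0.6 to 4.0 bp). The share in the first 20 kb differed by 2.28 points in H2A.Z and -0.363 points in total chromatin, and that in the last 20 kb by 2.56 and -2.91 points, with 0 inside all 4 intervals.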

How the results depend on the processing

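Differences below are members minus the middle 80%, in percentage points, bp or percentile points as in the report. Of 223 alternatives over 24 compared values, 175 left the difference inside its 95% interval, 47 moved it outside, and 1 changed the sign of a difference whose interval left out 0. Of 207 over 26 further values these counts were 175, 28 and 4. A further 15 of those that moved it outside also changed its sign, where the interval held 0. The cause of each move was not tested.

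With whole identifiers only, the H2A.Z differences were 6.27 for score percentile, 30.7 for nearer neighbour, -8.28 for close neighbours and -0.0189 for mixing weight. The total ones were 16.6 for matching, 64.5 for long partners, 9.40 for partner delta, 13.1 for single-end delta, 16.1 for single-end matching, 22.2 for score percentile, 40.6 for nearer neighbour, 13.5 for wide distances and -22.8 for close neighbours, the last against 8.53 over all rows.

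With the highest 5% as members, H2A.Z gave 35.7 for long partners, 10.7 for partner delta and 25.4 for fractional identifiers. Total chromatin gave -15.7 for matching, 10.2 for partner delta, 14.2 for single-end delta, -3.82 for score percentile, -52.6 for nearer neighbour, 15.8 for close neighbours and 40.4 for fractional identifiers. With the highest 20%, partner delta was 7.32 and single-end delta 7.73 in H2A.Z, and 6.84 and 9.58 in total chromatin, where fractional identifiers gave 19.8. Against all other positions, total partner delta was 9.40 and single-end delta 12.9.

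In the single-end lists matching was -27.3 in H2A.Z and -18.0 in total chromatin, and long partners 38.6 and 33.8. In the upper 75% of scores, nearer neighbour was 26.8 in H2A.Z and 10.4 in total chromatin, and fractional identifiers 11.3 and 23.0. By score tertile, H2A.Z matching was -5.33 in the middle one and total close neighbours 15.4 in the lowest. Counting close neighbours under 73 bp gave 6.96 in H2A.Z and 21.7 in total chromatin, and under 120 bp 1.53 in total chromatin.

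Without positions that have a neighbour under 100 bp, matching was 7.73 in H2A.Z and 11.2 in total chromatin, total single-end matching 5.86 and total score percentile 12.0. With the lower 75% of members by delta, total values were 6.24 for matching, 1.18 for single-end matching, 13.7 for score percentile, 2.01 for nearer neighbour and 1.51 for close neighbours. These alternatives, other than the score percentile without close neighbours, were chosen after the data were seen.

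Each group is 1 library of unstated depth, so leaving out a library was not possible and no replicate error exists. No paired analysis was possible because the labels give 1 sample per group and no replicate numbers.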
